A study of Mus musculus with 8 samples.

Results

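Cadherins and protocadherins are the transmembrane proteins with repeated extracellular cadherin domains through which neighbouring cells of the cortex recognise and hold each other. Members were taken from the gene symbols of a count table, as every cadherin with a number in its symbol except the endothelial Cdh5, and every protocadherin, with at least 80 counts over 8 libraries. Of the 60 such symbols among 21165 gene rows, 47 had enough counts, namely 15 cadherins, 20 clustered protocadherins and 12 other protocadherins. The count minimum fell between Pcdhb10, with 79 counts and left out, and Pcdhb4, with 94 and kept. Of the 47 members, 46 passed edgeR's filter on low counts and were tested, and Pcdhb4 was the one that did not.

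The counts came from polyA RNA of the cortex of 4 Nuak1 KO and 4 WT mouse embryos at E18.5, each library 1 embryo. NUAK1 is a kinase related to AMPK that acts in the growth and branching of cortical axons, and the comparison asks how the transcripts of the cortex change when it is missing. The KO line is constitutive, so NUAK1 was missing from every cell of the embryo and not from neurons alone, its allele is genotyped by a LacZ band, the colony was kept on a C57Bl/6JRj background, and KO animals die at birth. No agent was given to either group. The labels list 2 male and 2 female KO embryos and 1 male and 3 female WT embryos from 3 litters, where the series' design text speaks of 4, but the columns of the table carry only the genotype and a running number, so no library was given a sex or a litter, and libraries are named here as in KO library R1.

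Classical cadherins bind the same or a related cadherin on the next cell and hold the cytoskeleton through catenins. Type I members such as N-cadherin build the adherens junctions of cortical progenitors, and type II members are expressed in patches that follow cortical areas, layers and matching sets of neurons. Clustered protocadherins are chosen stochastically by each neuron and give its branches an identity by which they avoid their own kind, while the non-clustered delta protocadherins act in axon growth and synapse formation and signal to actin.

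Libraries held between 9643711 and 27014858 counts. No 2 libraries of a genotype were as alike as counting noise alone would make them (lowest chi-square per degree of freedom 5.92). Values below are normalized counts, that is counts divided by the library's effective size and multiplied by the mean effective size of the 8. KO libraries had between 11.1 and 20.5 normalized counts of Nuak1 and WT libraries between 877 and 1445, so each column followed its genotype. Cortical neuron markers summed to 18378 to 20359 normalized counts in KO and 12947 to 18192 in WT. KO library R1 stood apart: its 10 meningeal fibroblast markers summed to 10537 normalized counts, against 398 to 564 in the other KO libraries and 319 to 432 in WT, and it held 26 of the 29 counts of Cdh1. Endothelial markers were higher in KO for 8 of 8 genes, with sums of 3146 to 4811 in KO and 2958 to 3370 in WT. The highest of these sums was that of KO library R1, and 1 of the 8 genes had an unadjusted p under 0.05 by edgeR. Of all 12699 genes tested, 5794 were higher in KO. The 4 mural, 5 microglia and 5 tested striatal markers were also all higher, while all 7 interneuron markers were lower. Upper layer markers were higher for 5 of 5 genes (sums of 8166 to 8969 in KO against 6570 to 8615 in WT). Deep layer markers went both ways, 3 of 5 higher, with sums of 5522 to 6051 in KO against 4775 to 7145 in WT. Fezf2 and Tle4 were lower (log2 fold changes of -0.36 and -0.27), Foxp2 and Ctgf were higher (0.35 and 0.39), and Sox5 was at 0.01. None of the 4 choroid plexus markers had enough counts to be tested.

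Cdh12 was the member whose difference passed the test. At an adjusted p under 0.05 (edgeR's quasi-likelihood test, Benjamini-Hochberg over all 12699 genes tested) it was called alone among the 46 members, where 0.0709% of all genes were called. A looser rule, the one the authors used, asks for an unadjusted p under 0.05 and a log2 fold change beyond 0.25 in either direction. It called 11 members, or 23.9%, where 4.25% of all genes were called. Of these, 6 were higher in KO, with a background of 2.45% (Cdh12, Cdh6, Cdh10, Cdh4, Pcdh7 and Pcdhb13), and 5 were lower, with a background of 1.8% (Cdh11, Cdh7, Cdh23, Pcdh19 and Pcdhb6). The number of lower members was 1 without KO library R1, 2 without KO library R2 and 3 without WT library R2, while the number of higher ones stayed between 5 and 8 with any one library left out. An unadjusted p under 0.05 alone was also reached by 11 members, against 7.69% of all genes. In 7 members the 4 KO libraries did not overlap with the 4 WT libraries, against 4.49% of all genes. The KO libraries lay above in 6 of them (Cdh12, Cdh6, Cdh10, Pcdh7, Pcdhb13 and Pcdhb5), against 2.64%, and below in Cdh7, against 1.85%. Members were chosen with earlier results of these data known, so these shares and the family shares below are no independent test of an excess.

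The share called differed among the families. The looser rule called 7 of 15 cadherins (46.7%), 2 of 19 clustered protocadherins (10.5%) and 2 of 12 other protocadherins (16.7%). The calls went in both directions within each family, and the median log2 fold change was -0.04 for cadherins, 0.09 for clustered protocadherins and 0.02 for other protocadherins, beside -0.01 for all genes tested. The first of these medians was 0.15 without WT library R4 and the last 0.13 without WT library R1, and that of clustered protocadherins was 0.18 without KO library R1, 0.14 without WT library R4 and 0.04 to 0.06 without KO library R3, KO library R4, WT library R1 or WT library R3. Fold changes of single members ranged from -0.95 for Cdh23 to 0.85 for Pcdhb13, both of which have few counts. The cortex is a mixture of cells, and in such bulk samples fewer cells of a type and less RNA per cell cannot be told apart.

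**Figure D1:**
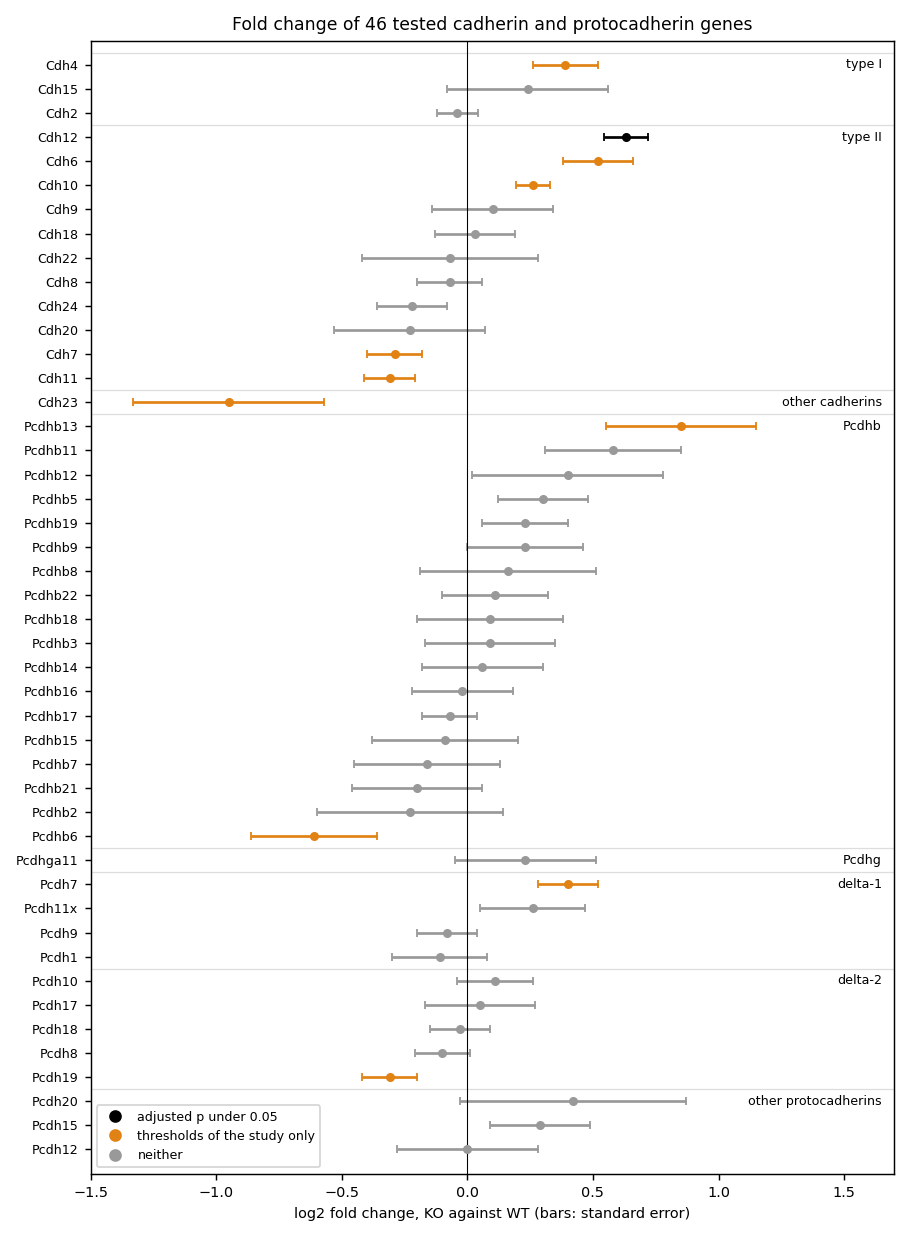
Log2 fold change of KO against WT for the 46 tested members, grouped by family, as points with standard errors as bars; 0 is no difference. Cdh12 is in black as the member with an adjusted p under 0.05, and the members called by the looser rule only are in orange, on both sides of 0.

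Of the 3 type I cadherins, 1 was called by the looser rule, where 4.25% of all genes were. Cdh2, which encodes N-cadherin, was the member with the highest level per kb. It had 9228, 10133, 9966 and 9241 normalized counts in KO libraries R1 to R4 and 10044, 10410, 10972 and 8254 in WT libraries R1 to R4. The genotypes overlapped throughout, and its log2 fold change was -0.04 with a 95% interval of -0.22 to 0.14 (edgeR adjusted p = 0.938). Cdh4, or R-cadherin, which can pair with N-cadherin, had 826, 701, 1080 and 800 normalized counts in KO and 670, 560, 769 and 613 in WT. Its KO libraries were the higher ones on average, with R3 far above the rest, but R2 of KO lay below R3 of WT. Its log2 fold change, 0.39 with a standard error of 0.13, met the looser rule but did not pass after adjustment (edgeR adjusted p = 0.554), and it was 0.25 without KO library R3. Cdh15, or M-cadherin, known from muscle, was low, between 11.3 and 27 normalized counts over all libraries, and its genotypes overlapped.

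Among the 11 type II cadherins, 5 were called by the looser rule (45.5%, against 4.25% of all genes), 3 higher (27.3%, against 2.45%) and 2 lower in KO (18.2%, against 1.8%), and the median log2 fold change was -0.07. Cdh12, a brain cadherin, had 310, 365, 371 and 324 normalized counts in KO and 229, 216, 222 and 220 in WT. Every KO library was at least 310 and the WT libraries lay within a narrow band, 222 ± 5.7 (SD, n = 4) against 343 ± 29.9 (SD, n = 4) in KO. Cdh12 rose 1.55-fold, a log2 fold change of 0.63 (standard error 0.088, 95% interval 0.43 to 0.82, edgeR adjusted p = 0.0314). It ranked 8th by p among all genes tested. The adjusted p was 0.0447 without KO library R1 and 0.0446 without WT library R4, and it was above 0.05 without any one of the other 6 libraries, namely 0.0956, 0.161 and 0.101 without KO libraries R2, R3 and R4, and 0.0866, 0.127 and 0.124 without WT libraries R1, R2 and R3 (edgeR). Over these 8 fits the log2 fold change of Cdh12 stayed between 0.59 and 0.68 and the unadjusted p reached 0.000127 at most.

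Cdh6, or K-cadherin, known for matching retinal axons with their targets, had 478, 578, 522 and 573 normalized counts in KO and 420, 297, 466 and 318 in WT. All KO libraries lay above all WT libraries, though R1 of KO and R3 of WT were close. Cdh6 gave a log2 fold change of 0.52 (standard error 0.14), with an edgeR adjusted p of 0.44 and a DESeq2 adjusted p of 0.0464, so the call depended on the tool. Cdh10, a type II cadherin of forebrain neurons, had 1423, 1397, 1495 and 1650 normalized counts in KO and 1272, 1286, 1139 and 1280 in WT. Again no KO library reached down to WT, and the spread within a genotype was small, 1491 ± 113 (SD, n = 4) against 1244 ± 70.4 (SD, n = 4). This amounted to a log2 fold change of 0.26 (standard error 0.067), with an adjusted p of 0.404 by edgeR and 0.0758 by DESeq2. Without KO library R4 or WT library R3 the log2 fold change of Cdh10 was 0.21 or 0.23, under the limit of the looser rule.

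The type II members that the looser rule called lower in KO were Cdh11 and Cdh7. Cdh11, the osteoblast cadherin, which mesenchymal cells and neurons express, had 2060, 1636, 1905 and 1838 normalized counts in KO and 2358, 2544, 1840 and 2454 in WT. All KO libraries lay below 3 of the WT libraries, and WT library R3 fell among them. Its log2 fold change was -0.31 (standard error 0.10, edgeR adjusted p = 0.537), and it was -0.35 without KO library R1, the library with the high meningeal markers. Without KO library R2 it was -0.24, under the limit of the looser rule. Cdh7 had 124, 122, 144 and 138 normalized counts in KO and 148, 172, 160 and 171 in WT, and was the only member whose KO libraries all lay below WT. It gave a log2 fold change of -0.29 (standard error 0.11, edgeR adjusted p = 0.607). The unadjusted p of Cdh7, 0.0221 from edgeR over all libraries, was 0.0551 without KO library R1, 0.0653 without KO library R2 and 0.056 without WT library R2.

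The 6 other type II cadherins did not pass either rule, and their genotypes overlapped. Cdh8, found in patches of cortex and striatum, was the third member of this class in abundance by normalized counts per kb, with 2332 to 2699 normalized counts in KO and 1924 to 3222 in WT. Cdh24 had 415 to 553 in KO and 434 to 709 in WT, with a log2 fold change of -0.22 (95% interval -0.52 to 0.08). Cdh20 was uneven, with 464 normalized counts in WT library R4 and 160 to 316 in the other libraries. Cdh9, which acts at hippocampal mossy fibre synapses, had 113 to 242 in KO and 133 to 265 in WT. Cdh18 had 115 to 166 in KO and 104 to 164 in WT, and Cdh22 16.7 to 45.2 and 22.5 to 57.4.

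**Figure D2:**
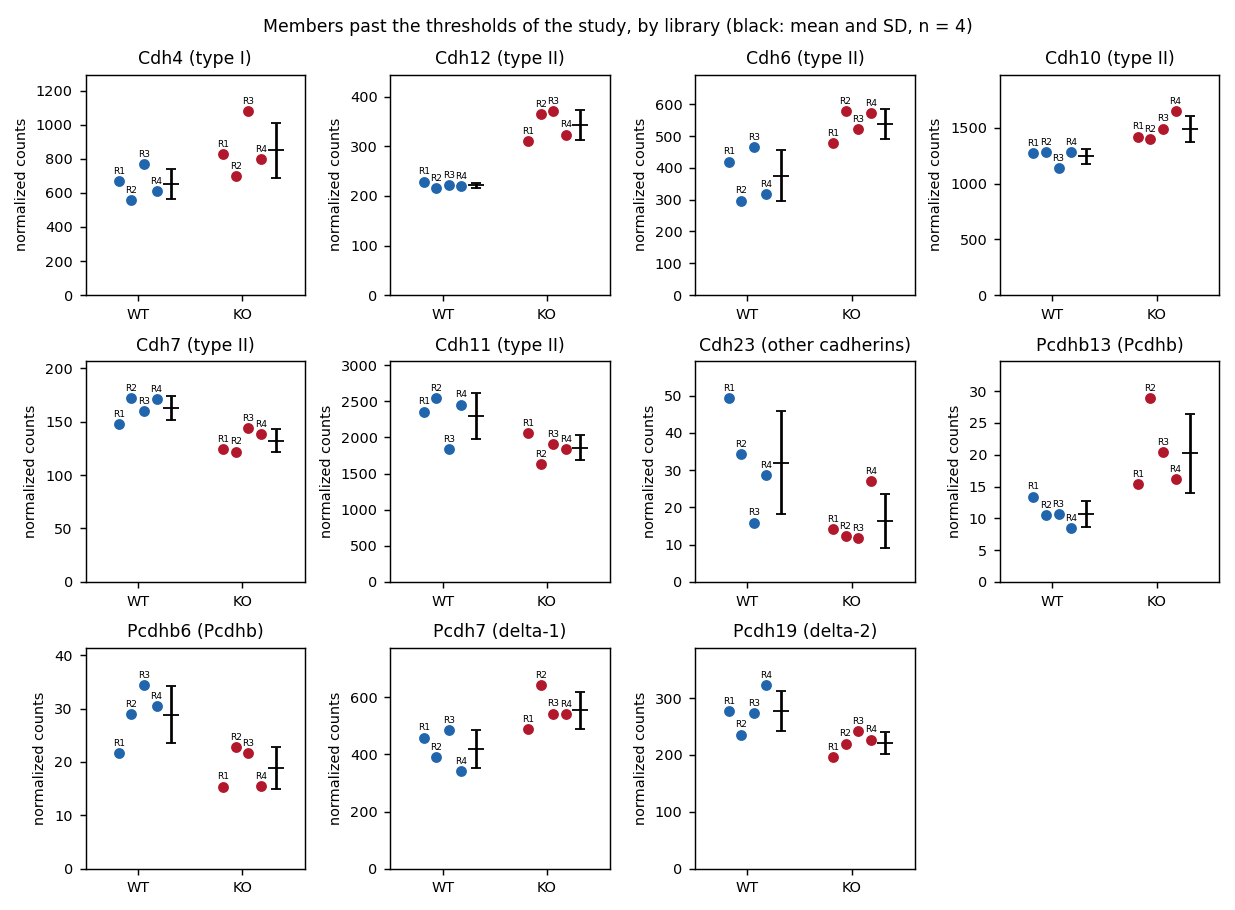
Normalized counts of the 11 members called by the looser rule, one panel per gene with its axis from 0, with WT libraries in blue, KO libraries in red and the mean and SD (n = 4) in black. The 2 genotypes are apart in Cdh12, Cdh6, Cdh10, Cdh7, Pcdh7 and Pcdhb13 and overlap in the other panels.

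The 3 type II cadherins that the looser rule called higher in KO share a stretch of chromosome 15. On NCBIM37, the assembly of mm9, Cdh6 lies at chr15:12963955-13103394 on the minus strand, and Cdh9 (chr15:16707856-16786522), Cdh10 (chr15:18748702-18943990), Cdh12 (chr15:21041207-21519288) and Cdh18 (chr15:22478777-23404173) lie on the plus strand. Over these 10.4 Mb the 5 cadherins were the only genes with a position that were tested. Cdh9, between Cdh6 and Cdh10, and Cdh18, beyond Cdh12, gave log2 fold changes of 0.10 (standard error 0.24) and 0.03 (standard error 0.16), with unadjusted p of 0.693 and 0.869 from edgeR, and each had overlapping genotypes. Summed over the 5 genes, KO libraries had 2565, 2618, 2743 and 2920 normalized counts and WT libraries 2262, 2076, 2124 and 2214, sums in which Cdh10 has the largest share. This grouping was made after the values were seen, and no test was run on it.

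The promoters of the 3 genes are shown to compare their sequence at the start site, since these are the cadherins whose KO libraries all lay above WT, again chosen after the values were seen. The promoter table matched 21 of the 47 members by symbol. Each sequence runs from 250 bases before to 50 bases after the start in RefSeq on GRCm38.p6, and capitals mark a match to one of the motifs searched on both strands, the TATA box core TATAAA, the CCAAT box and the E-box CAGCTG.
Cdh6 promoter, GRCm38.p6 chr15:13173626-13173925, minus strand: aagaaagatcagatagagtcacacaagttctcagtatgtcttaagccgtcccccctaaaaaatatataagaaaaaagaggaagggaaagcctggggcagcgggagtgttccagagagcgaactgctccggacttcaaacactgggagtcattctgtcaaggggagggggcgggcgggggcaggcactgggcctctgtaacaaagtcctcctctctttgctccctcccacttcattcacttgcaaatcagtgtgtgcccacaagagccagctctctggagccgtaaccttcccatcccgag
Cdh10 promoter, GRCm38.p6 chr15:18820079-18820378, plus strand: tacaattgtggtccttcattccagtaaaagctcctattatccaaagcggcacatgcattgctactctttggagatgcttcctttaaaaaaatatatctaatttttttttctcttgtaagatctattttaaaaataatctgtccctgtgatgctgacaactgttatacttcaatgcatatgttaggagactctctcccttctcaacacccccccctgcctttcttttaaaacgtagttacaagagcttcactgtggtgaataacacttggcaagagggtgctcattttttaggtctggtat
Cdh12 promoter, GRCm38.p6 chr15:21111202-21111501, plus strand: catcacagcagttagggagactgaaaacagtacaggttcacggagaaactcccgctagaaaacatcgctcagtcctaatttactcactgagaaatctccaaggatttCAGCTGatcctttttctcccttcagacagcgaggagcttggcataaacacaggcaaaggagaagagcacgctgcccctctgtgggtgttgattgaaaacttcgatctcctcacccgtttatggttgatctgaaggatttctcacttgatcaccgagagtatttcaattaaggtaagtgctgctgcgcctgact
The promoters did not look alike. Cdh10 had a GC content of 37.7% and 2 CG dinucleotides, Cdh12 had 46.7% and 9, and Cdh6 had 53% and 8, beside medians of 52.7% and 7 over 32851 promoters of the same length. A CAGCTG was found in Cdh12, and none of the 3 motifs in Cdh6 or Cdh10. These letters occur in 16.3% of all promoters, TATAAA in 13.6% and CCAAT in 37.4%. In the same stretch, Cdh9 held 1 CCAAT and 1 CAGCTG and Cdh18 held 1 CCAAT. The promoters of Cdh9 and Cdh18 are taken at RefSeq starts, which need not be the starts of the gene positions given above. A match or its lack says nothing of what binds there.

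Cdh23 was the cadherin outside both classical types that had enough counts, and it had the lowest level per kb of all members with a length. With Pcdh15 it forms the tip links of hair cells, and it is expressed in precursors of some cortical interneurons. It had 14.1, 12.2, 11.8 and 27 normalized counts in KO and 49.3, 34.2, 15.9 and 28.7 in WT. KO library R4 lay among the WT libraries, and WT library R3 among the KO libraries. Its log2 fold change was -0.95 (standard error 0.38, edgeR adjusted p = 0.629), and the unadjusted p stayed under 0.05 in 3 of the 8 fits with one library left out. Without WT library R1 the log2 fold change of Cdh23 was -0.66, with an unadjusted p of 0.127 from edgeR, and it was also above 0.05 without KO library R1 (0.0636), R2 (0.0704) or R3 (0.09) or WT library R2 (0.0611). The sums of 7 interneuron markers were 2638 to 2951 in KO and 2714 to 3611 in WT, and their part in this result was not tested. Pcdh15 had 157 to 210 normalized counts in KO and 95.1 to 211 in WT, a log2 fold change of 0.29 (95% interval -0.15 to 0.74). The value for Pcdh15 was 0.14 without WT library R3 and 0.48 without WT library R4, where its unadjusted p was 0.0196 from edgeR.

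Clustered protocadherins were represented by the Pcdhb genes, each a single exon with its own promoter, and by Pcdhga11. The alpha and gamma genes splice a chosen variable exon to constant exons that a whole cluster shares. In the GENCODE vM1 annotation 10 such transcripts stand under Pcdha11, which was listed at 0 in all libraries like Pcdha6, Pcdhga2 and Pcdhb1, and 10 under Pcdhgc5, which is not a row of the table. How shared exons were counted is not given in the sources used here, so the 0 values of these clusters are not read as lack of expression. The Pcdhb genes are related in sequence, and reads that map to several of them may have been lost or split, which leaves the level of any single one uncertain.

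The 19 Pcdhb genes together gave 648, 792, 713 and 775 normalized counts in KO libraries R1 to R4 and 655, 734, 637 and 785 in WT libraries R1 to R4. Their means, 732 ± 65.4 for KO against 703 ± 69.5 for WT (SD, n = 4 each), differed by less than the spread within a genotype. Of the 18 tested, 11 were higher and 7 lower in KO, with a median log2 fold change of 0.09, and no Pcdhb gene had an adjusted p under 0.05 by edgeR, while 2 of 18 (11.1%) had an unadjusted p under 0.05, against 7.69% of all genes. Pcdhb17 was the most abundant per kb, with 113, 109, 123 and 125 normalized counts in KO and 115, 132, 118 and 132 in WT. Its libraries lay close together, and the log2 fold change was -0.07 (standard error 0.11).

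Pcdhb13 and Pcdhb6 were called by the looser rule in opposite directions, both on few counts. Pcdhb13 had 15.4, 28.9, 20.4 and 16.2 normalized counts in KO and 13.4, 10.5, 10.6 and 8.45 in WT. The KO libraries all lay above WT, with R2 standing out, and the log2 fold change was 0.85 (standard error 0.30, edgeR adjusted p = 0.564), between 0.69 and 0.98 with any one library left out. Pcdhb6 had 15.4, 22.8, 21.7 and 15.5 normalized counts in KO and 21.6, 28.9, 34.4 and 30.4 in WT, where WT library R1 overlapped with KO. Its log2 fold change was -0.61 (standard error 0.25, edgeR adjusted p = 0.631). The unadjusted p of Pcdhb6 was over 0.05 in 5 of 8 fits, without KO library R1 (0.0729) or R4 (0.101) or WT library R2 (0.0677), R3 (0.102) or R4 (0.0632) from edgeR, and it was 0.0783 from DESeq2 over all libraries. Pcdhb5 had 56.4, 66.9, 64.4 and 60 normalized counts in KO and 55.5, 56.1, 35.7 and 52.4 in WT. Its KO libraries lay just above WT, by less than 1 count at the nearest pair, and the log2 fold change of 0.30 (standard error 0.18) did not reach an unadjusted p of 0.05 and was 0.18 without WT library R3. Pcdhga11 had 13.7 to 29.7 normalized counts in KO and 15.4 to 23.7 in WT.

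**Figure D3:**
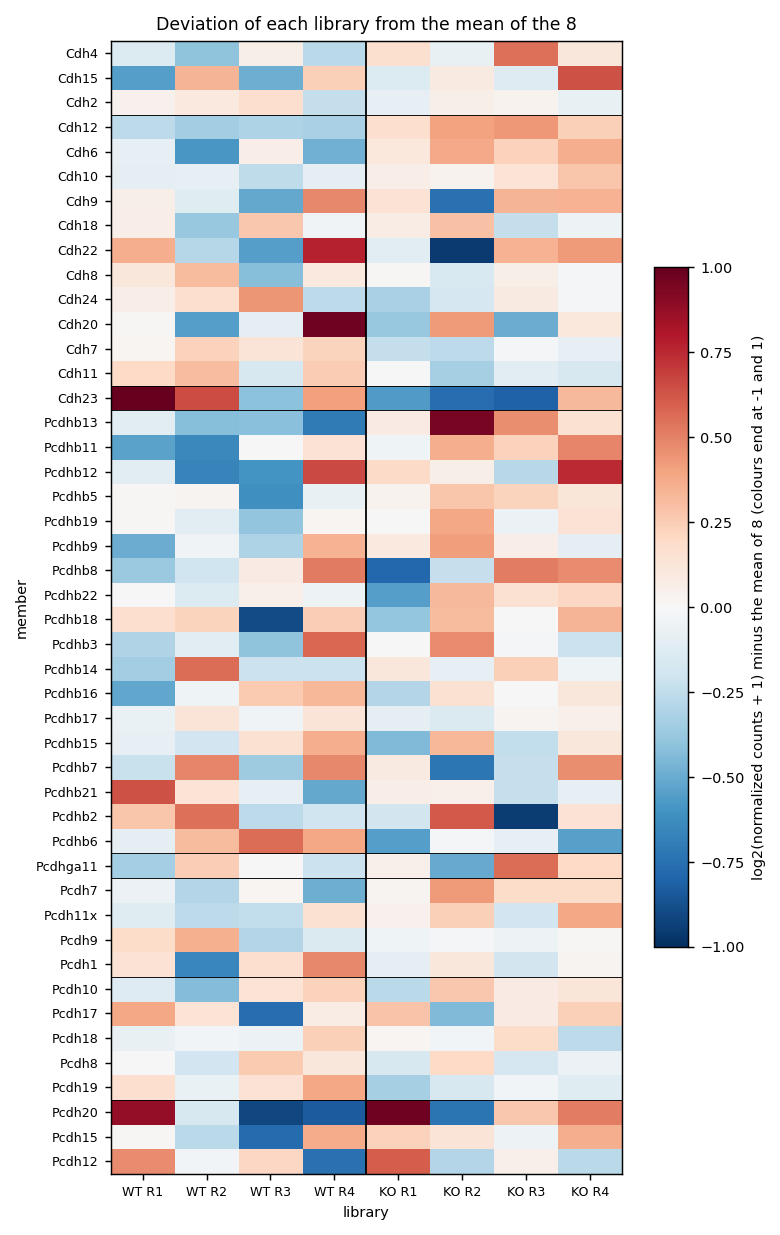
Deviation of each tested member (rows, by family) in each library (columns) from its mean over the 8 libraries, on the scale of log2(normalized counts + 1), with red above and blue below and colours ending at -1 and 1. Cdh12 is blue in every WT column and red in every KO column, while Cdh20, Pcdh20 and most Pcdhb genes vary among libraries of the same genotype.

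Non-clustered protocadherins of the delta-1 class bind protein phosphatase 1 through their tails. Pcdh7 had 487, 642, 542 and 541 normalized counts in KO and 458, 389, 485 and 341 in WT. All KO libraries lay above all WT libraries, though R1 of KO was only just above R3 of WT. Pcdh7 had a log2 fold change of 0.40 (standard error 0.12), with an adjusted p of 0.481 by edgeR and 0.12 by DESeq2, and it stayed between 0.32 and 0.48 with any one library left out. Pcdh9 had the highest level per kb of the protocadherin members with a length. It had 879, 896, 872 and 914 normalized counts in KO and 1027, 1161, 737 and 818 in WT. The KO libraries were close together within the wider range of WT, and the log2 fold change was -0.08 (95% interval -0.35 to 0.19). Pcdh1 had 290 to 356 in KO and 209 to 459 in WT, and the X-linked Pcdh11x 30.3 to 45.9 and 28.9 to 38.8.

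Several delta-2 protocadherins bring the WAVE complex of actin assembly to sites of contact. Pcdh19, an X-linked member that binds N-cadherin and whose loss causes an epilepsy in girls, had 196, 220, 242 and 227 normalized counts in KO and 277, 236, 273 and 323 in WT. KO library R3 lay above WT library R2, and otherwise the KO libraries were the lower ones. A log2 fold change of -0.31 resulted (standard error 0.11, edgeR adjusted p = 0.576), and it was -0.25 without KO library R1 and -0.23 without WT library R4, with unadjusted p of 0.056 and 0.0515 from edgeR. The groups hold 2 and 3 females, and the part of sex in the level of this X-linked gene was not tested. Pcdh8, an activity-regulated protocadherin that takes part in removing N-cadherin from synapses, had 390 to 502 normalized counts in KO and 383 to 525 in WT, and a log2 fold change of -0.10 (95% interval -0.34 to 0.15). Pcdh18 had 236, 228, 264 and 194 in KO and 221, 228, 223 and 274 in WT, with a log2 fold change of -0.03 (95% interval -0.29 to 0.23). Pcdh10 had 215 to 313 in KO and 192 to 304 in WT, and Pcdh17 135 to 224 and 108 to 241, so none of these 4 separated by genotype.

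Pcdh12 and Pcdh20 complete the non-clustered genes. Pcdh12, a protocadherin of endothelial cells, had 57.7, 30.4, 39 and 31 normalized counts in KO and 52.4, 36.8, 43.6 and 22 in WT. Its highest library was KO library R1, which also had the highest sum of endothelial markers, and its log2 fold change was 0.00 (95% interval -0.63 to 0.62). Without that library it was -0.21, with no call. Pcdh20 ranged from 7.93 to 32 normalized counts, with the highest library of each genotype at 32 and 29.8.

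Levels were set side by side per kb of exon that no other annotated gene of the same strand shares, which 46 of the 47 members had. Cdh2 stood first with a WT level of 1230 ± 146 normalized counts per kb and a KO level of 1195 ± 58.9 (SD, n = 4 each), and it held 30.7% of the level summed over the members. Cdh11 followed in WT with 545 ± 74.7 (SD, n = 4), then Cdh10 with 351 ± 19.9 (SD, n = 4), Cdh8 with 346 ± 70.3 (SD, n = 4) and Pcdh9 with 252 ± 52.1 (SD, n = 4). Cdh12 was a member of middling level, with 39.3 ± 1.01 normalized counts per kb in WT against 60.7 ± 5.3 in KO (SD, n = 4 each). The lowest was Cdh23, at 1.89 ± 0.818 in WT against 0.959 ± 0.427 in KO (SD, n = 4 each). In the WT order 42 of 45 neighbouring pairs overlapped between libraries, and the separated pairs were Cdh2 above Cdh11, Cdh11 above Cdh10 and Cdh7 above Pcdhb22. The lengths come from GENCODE vM1, which may not be the annotation used for counting.

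**Figure D4:**
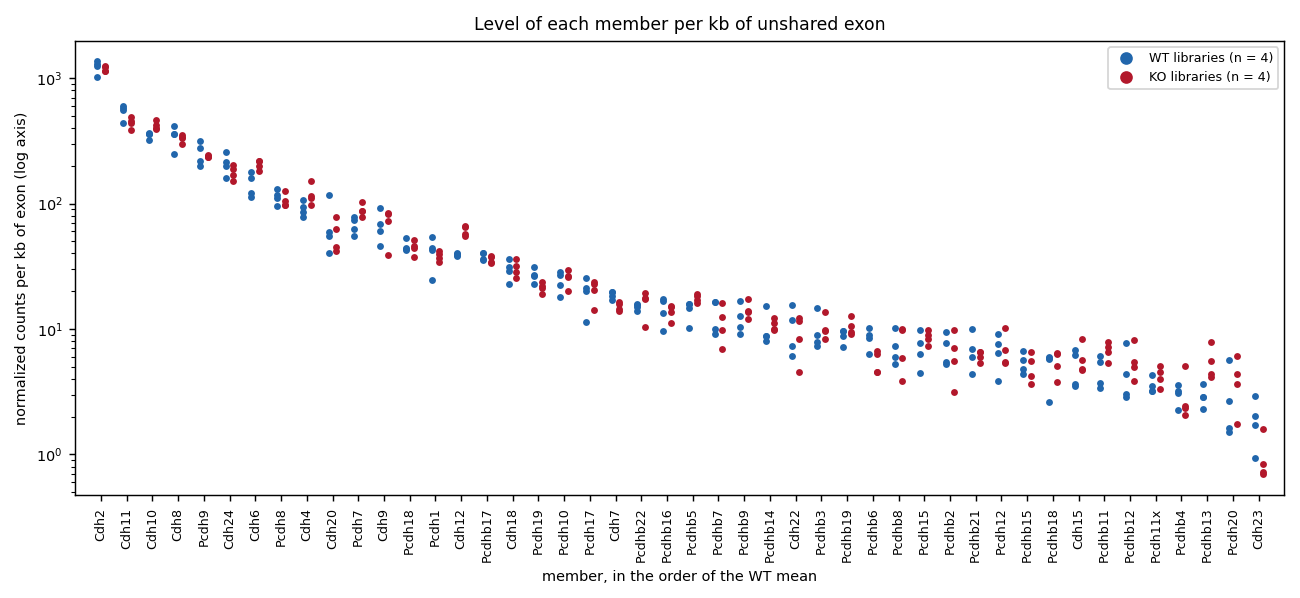
Normalized counts per kb of unshared exon (log axis) of the 46 members with a length, in the order of the WT mean, with each of the 4 WT libraries as a blue point and each of the 4 KO libraries as a red point. Cdh2 lies above all other members, and most neighbours overlap.

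Genes left out by the count minimum had 0 to 79 counts over the 8 libraries, the highest being Pcdhb10, which was counted in every library. Cdh16, Pcdha11, Pcdha6, Pcdhb1 and Pcdhga2 had 0 counts over all 8 libraries, which allows a level of up to 0.0227 CPM over the libraries together (3 counts of their total), for counting error only. Pcdh24 had 2 counts, Cdh3 10, Cdh19 22, Cdh29 24, Cdh1 29, Cdh17 31 and Cdh26 48. E-cadherin, the product of Cdh1, is an epithelial cadherin, and its counts outside KO library R1 were 2 at most in any library.

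The genes through which cadherins work were examined with a list of 72 by role, of which 60 were tested. 18 were higher and 42 lower in KO, with a median log2 fold change of -0.04. Over all genes tested, 5794 were higher and 6905 lower, with a median of -0.01. No gene of the list had an adjusted p under 0.05 by edgeR or by DESeq2, and 4 had an unadjusted p under 0.05 by edgeR, 2 in each direction, which is 6.67% of the list where 7.69% of all genes had one. That share is not above the background, and the 4 genes are given as values only. That count of 4 was 1 without KO library R3 or WT library R3, and 2 without KO library R4 or WT library R2. Catenins and adaptors gave 2 of them among 13 tested. Pkp4, an armadillo protein of cell junctions, had 2547, 2533, 2843 and 2859 normalized counts in KO and 2582, 2435, 2361 and 2417 in WT. Arvcf, of the p120 catenin family that steadies cadherins at the membrane, had 1603, 1672, 1697 and 1745 in KO and 1615, 1487, 1601 and 1432 in WT. The genotypes overlapped in both, and the log2 fold changes were 0.14 (standard error 0.058) and 0.13 (standard error 0.056). Each kept an unadjusted p under 0.05 in 4 of 8 fits with one library left out, and lost it for both genes without KO library R3, KO library R4 or WT library R2.

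Wasf1, which encodes the WAVE1 protein of that actin complex, was the one with an unadjusted p under 0.05 among 13 protocadherin partners. It had 1782, 1989, 1774 and 1818 normalized counts in KO and 2131, 1751, 2337 and 2458 in WT, where WT library R2 was the lowest of the 8. The log2 fold change was -0.23 (standard error 0.094), and the unadjusted p, 0.0291 from edgeR over all libraries, was over 0.05 without KO library R1 (0.0684), R3 (0.0694) or R4 (0.0593) or WT library R3 (0.081) or R4 (0.0791). Dsc3, a desmosomal cadherin of epithelia, had 5.12, 95.8, 18.6 and 5.4 normalized counts in KO and 102, 2.63, 151 and 373 in WT. Its level varied manyfold within each genotype, and the log2 fold change of -2.49 (standard error 1.1) became -1.60 without WT library R4 and -3.82 without KO library R2, with an unadjusted p under 0.05 in 3 of 8 such fits and of 0.0785 from DESeq2 over all libraries. Of 5 cleavage genes and 14 genes of clustered protocadherin promoter choice and chromatin, none had an unadjusted p under 0.05, and their log2 fold changes ranged from -0.10 to 0.04 and from -0.28 to 0.06.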

How the data were processed

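Cortex polyA RNA of 4 KO and 4 WT embryos was sequenced with a stranded kit. The authors trimmed the reads, mapped them to mm9 with TopHat2 2.0.13, obtained gene counts from HTSeq-count and deposited them raw, as whole-number counts. Each gene row carries an identifier in a column named id_fasterdb. The counting annotation itself is not stated in the sources used here. Nor is the treatment of reads on shared exons or of reads that map to several genes. All 8 columns were used, with 0 left over, and grouped by genotype from their names.

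Counts were fitted over the whole table with the quasi-likelihood test of edgeR 4.0.16 under R 4.3.3 (filterByExpr, then TMM, then Benjamini-Hochberg adjustment over 12699 genes), with totals of 9643711 to 27014858 counts per library. The standard error is the absolute log2 fold change over the square root of F. DESeq2 1.42.0 served as an alternative, as did DESeq2's size factors, no filter, at least 10 counts in every library, all exonic bases as the length, and each library left out. The scripts were tested on simulated data. Positions and lengths are from GENCODE vM1 on NCBIM37, promoters from RefSeq on GRCm38.p6. Levels within a gene are normalized counts, and between genes normalized counts per kb.

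Members, partner genes and marker lists were chosen with earlier results of these data known. Named genes are Nuak1, members with an unadjusted p under 0.05 or without overlap of the genotypes, the 2 highest per kb of each class, and partner genes with an unadjusted p under 0.05; the values of other members are given as ranges.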

Additional observations from a re-analysis of the deposited data

Results flagged for a closer look

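In 48 groups of 4 libraries, one per named gene and genotype, 4 had a library far from the other 3 by Dixon's criterion at the 95% level, where chance gives about 1 in 20, or 2.4 groups. Cdh10 was low in WT library R3, at 1139 normalized counts with the nearest WT library at 1272. Cdh23 was high in KO library R4, at 27 with the nearest at 14.1. Pcdh18 was high in WT library R4, at 274 with the nearest at 228. Dsc3 was high in KO library R2, at 95.8 with the nearest at 18.6.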

How the results depend on the processing

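DESeq2 gave 2 members an adjusted p under 0.05 (Cdh12 and Cdh6) where edgeR gave 1, and 70 of all genes where edgeR gave 9. Pcdhb6 and Dsc3 lost an unadjusted p under 0.05 with DESeq2 (0.0783 and 0.0785). With each library left out, edgeR gave 0 to 1 members at that level, 1 to 4 lower members by the looser rule (1 without KO library R1, 2 without KO library R2 and 3 without WT library R2, where all libraries gave 5) and 1 to 4 partner genes at an unadjusted p under 0.05 (1 without KO library R3 or WT library R3). Over all genes these fits gave 2 to 11 adjusted calls and 426 to 847 by the looser rule, the most without WT library R4. The median log2 fold change ran from -0.058 to 0.148 for cadherins, the highest without WT library R4, and from -0.022 to 0.127 for other protocadherins, the highest without WT library R1, so neither median kept its sign; the latter was also -0.001 with at least 10 counts in every library. Members near 0 changed sign: Pcdh12 was 0.0111 with DESeq2, 0.00407 with its size factors and 0.00756 without a filter, and with a library left out Pcdh12 ran from -0.21 to 0.18, Cdh2 from -0.113 to 0.0145, Pcdh18 from -0.111 to 0.0475 and Pcdh9 from -0.172 to 0.0459. The cause was not tested. No other named gene changed sign under these alternatives. Depth limits the members with few counts, and Cdh23 and Pcdhb13 gave no value with at least 10 counts in every library. Outside the members, Nuak1 gave none either, with 11.1 to 20.5 normalized counts in KO against 877 to 1445 in WT. The same held for Dsc3, which ran from 2.63 to 373 normalized counts. No paired analysis was possible because no column could be tied to an embryo, and the fit with litter as a block was therefore not run.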
